A study of Homo sapiens with 18 samples.

Results

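Nonsense-mediated decay removes transcripts in which translation stops too early, and it also lowers the level of many normal mRNAs with a long 3′ untranslated region, an upstream open reading frame or an intron downstream of the stop codon. UPF1 is the RNA helicase at its centre. UPF2 and the paralogues UPF3A and UPF3B link UPF1 to the exon junction complex that splicing leaves on an mRNA, the kinase SMG1 phosphorylates UPF1 with its partner SMG9, and SMG5 and SMG6 bind phosphorylated UPF1 to start decay, SMG6 being the endonuclease. The mRNAs of several of these factors are themselves known decay targets, so that their level is often read as a report of the pathway's activity.

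The transcripts of 8 decay factors were examined, namely *UPF1*, *UPF2*, *UPF3A*, *UPF3B*, *SMG1*, *SMG5*, *SMG6* and *SMG9*. They were chosen by name, with earlier results of these data known. All 8 were found among the 57500 genes of the count tables and passed the filter on low counts in every comparison. RNA was sequenced from ES8, a Ewing sarcoma line, and from Rh30, an alveolar rhabdomyosarcoma line, in 6 groups of 3 libraries. All cells carried dCas9-KRAB, the repressor used for CRISPR interference, and had received an sgRNA and 72 hours of puromycin selection. In each line the groups were parental cells with a non-targeting sgRNA (sgCTL), parental cells with an sgRNA against the 5′ untranslated region of *DNAJC17* (sgDNAJC17), and cells that stably expressed *DNAJC17* without its RNA recognition motif and then received the same sgDNAJC17 (ΔRRM cells). *DNAJC17* encodes a J-domain co-chaperone of HSP70. Parental cells with a full-length allele, and ΔRRM cells with sgCTL, were not analysed here, so the ΔRRM allele and its stable selection cannot be told apart from the effect of the sgRNA in those cells. Nothing in the labels says that the 3 replicates of a group came from separate transductions, and p-values therefore measure the spread between these samples, which may be technical.

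Library totals ran from 35342393 to 48245989 counts. *DNAJC17*, the targeted gene, fell by 2.84 on the log2 scale in ES8 and by 2.19 in Rh30 with sgDNAJC17 (n = 3 per group). It stood at 283 to 368 CPM in the ΔRRM libraries, where the transduced allele is counted with it. CPM are counts scaled to a library total adjusted by TMM over the 18 libraries together, not to the raw total. The line markers matched the labels, all 5 Ewing sarcoma markers being lower and all 5 rhabdomyosarcoma markers higher in Rh30 than in ES8 sgCTL cells. The summed level of 8 epithelial markers was 1.27 to 2.04 CPM in the Rh30 sgCTL libraries, 10.9 to 15.4 CPM with sgDNAJC17 and 11.7 to 14.5 CPM in ΔRRM cells. *KRT8* and *KRT18*, keratins of simple epithelia, made up most of it. With sgDNAJC17 in Rh30 both were called up, 2 of the 3 that could be tested of the 8, beside 16.1% of all genes. The epithelial markers had been seen in an earlier analysis of these data, so this count is no independent check. *CLDN7* and *RAB25* were at 0 in all Rh30 sgCTL libraries. In ES8 that sum was 66.0 to 71.9 CPM throughout. The summed level of the 5 rhabdomyosarcoma markers in Rh30 was 1942 to 2057 CPM with sgCTL, 1491 to 1677 CPM with sgDNAJC17 and 1219 to 1372 CPM in ΔRRM cells. With sgDNAJC17 3 of the 5 were called lower than with sgCTL, and in ΔRRM cells 4, beside 16.2 and 35% of all genes. In ES8 the summed level of the 5 Ewing sarcoma markers was 290 to 301 CPM with sgCTL. It was 266 to 277 CPM with sgDNAJC17 and 278 to 299 CPM in ΔRRM cells. With sgDNAJC17 1 of these 5, *NR0B1*, was called lower than with sgCTL, and in ΔRRM cells 0, beside 13.8% of all genes called lower and 0.174% called in either direction. The part of any of these marker lists in the results below was not tested.

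The 8 genes are protein-coding and lie on 7 chromosomes of GRCh38. *UPF1* is at chr19:18831938-18868236 on the plus strand and *SMG9* at chr19:43727992-43754990 on the minus strand. *UPF2* is at chr10:11920022-12043170, *UPF3B* at chrX:119805311-119852998, *SMG1* at chr16:18804853-18926454, *SMG5* at chr1:156249224-156282825 and *SMG6* at chr17:2059839-2303771, all on the minus strand. *UPF3A* is at chr13:114281584-114305817 on the plus strand. *SMG1* has near-identical pseudogene copies, and *SMG1P1* to *SMG1P7* together held 240 to 722 counts per library, against 1572 to 6597 counts for *SMG1*. Reads that fit several copies could be lost or shared between them, so that the level of *SMG1* is less certain than those of the others. The *UPF3A* pseudogenes held at most 12 counts in a library.

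All 8 genes were expressed in both lines, at very different levels. Per kilobase of exon in ES8 sgCTL cells, *SMG5* was highest with 68.1 ± 1.80 CPM per kb (SD, n = 3), followed by *UPF1* with 28.1 ± 0.489. The other 6 lay between 2.66 CPM per kb for *UPF3A* and 7.09 for *SMG9*, and no neighbours in the ES8 order had overlapping ranges. In Rh30 sgCTL cells *SMG5* and *UPF1* also led, with 24.5 and 22.0 CPM per kb. *SMG9*, *SMG1*, *SMG6*, *UPF3B* and *UPF2* followed between 3.16 and 3.98 CPM per kb with overlapping ranges between neighbours, and *UPF3A* was again last with 2.14. The lengths are the exonic bases of all isoforms of a gene as the files give them, so a gene that mainly uses a short isoform is placed too low on this scale.

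**Figure D1:**
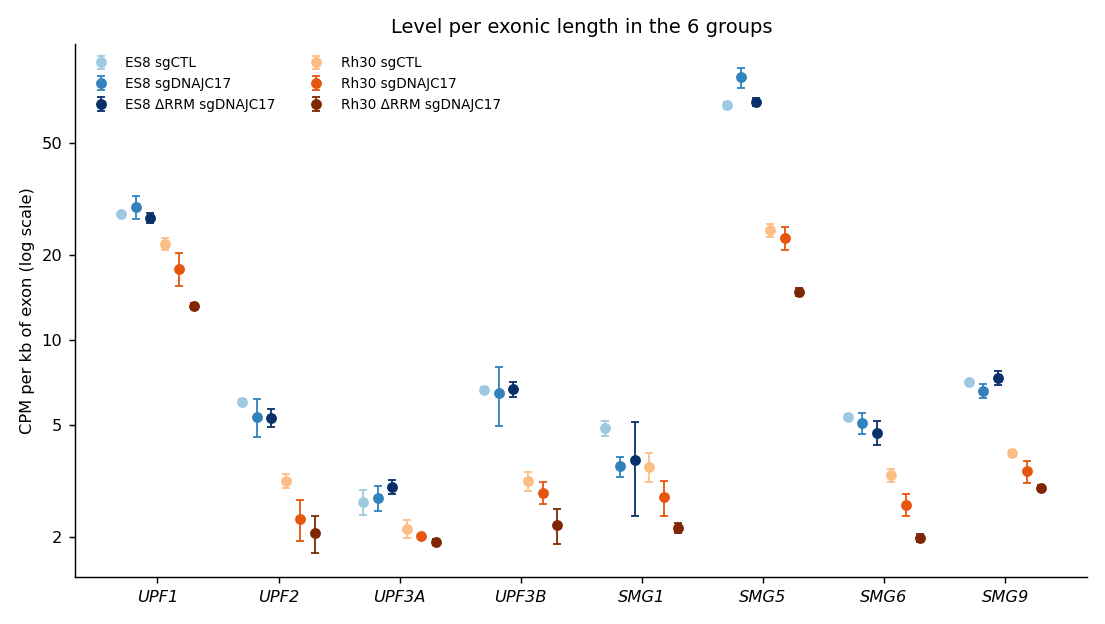
Mean CPM per kilobase of exon (y axis, log scale) of the 8 decay factors (x axis) in the 6 groups, with the SD over 3 libraries. *SMG5* fell from 68.1 in ES8 sgCTL cells to 14.8 in Rh30 ΔRRM cells, and *UPF3A* stayed between 1.92 and 3.01.

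Every decay factor was lower in Rh30 than in ES8 before any knockdown. The log2 difference between sgCTL cells of the lines was -1.50 for *SMG5*, -1.10 for *UPF3B*, -0.96 for *UPF2*, -0.86 for *SMG9*, -0.72 for *SMG6*, -0.48 for *SMG1*, -0.38 for *UPF1* and -0.34 for *UPF3A*. All 8 passed the test (edgeR's quasi-likelihood test, Benjamini-Hochberg adjusted p under 0.05 over all genes, called in what follows), which 87.5% of the 17925 genes tested between the lines did as well, so the count itself sets the decay factors apart in no way. The median over the 8 was -0.79, against -0.07 over all genes. Only *UPF1* turned to higher in Rh30, by 0.09, when its counts were corrected for the GC content and length of genes. That correction, which removes each library's trend of counts with these gene properties, was chosen after seeing the data. Line, culture and library preparation cannot be told apart here.

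With sgDNAJC17 in ES8, 2 of the 8 decay factors changed, in opposite directions. *SMG1* fell by 0.48 on the log2 scale (SE 0.0747, adjusted p = 0.00178, edgeR, n = 3 per group) and *SMG5* rose by 0.30 (SE 0.0646, adjusted p = 0.00736, edgeR, n = 3 per group). These 2 of 8 compare with 27.4% of the 17143 genes tested in this comparison, of which 13.6% rose and 13.8% fell, so the share called among the decay factors was about that of all genes. Both calls held when any 1 library was left out. In bulk RNA a lower level in every cell cannot be told apart from fewer cells with the transcript.

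*SMG1*, the kinase of UPF1, stood at 118, 132 and 130 CPM in the 3 ES8 sgCTL libraries and at 85.0, 99.9 and 92.8 CPM with sgDNAJC17. The groups did not overlap, and the difference was 1.39-fold. In ES8 ΔRRM cells *SMG1* was at 126, 57.9 and 108 CPM, so that replicate B lay below every other ES8 library while replicate A lay within the sgCTL range and replicate C below it. The log2 change of ΔRRM against sgCTL cells was accordingly uncertain, -0.39 ± 0.196 (SE), and became -0.12 without replicate B. Without that replicate *SMG1* was also higher in ΔRRM than in sgDNAJC17 cells, by 0.36 (adjusted p = 0.0474, edgeR). With the correction for GC content and length the fall of *SMG1* with sgDNAJC17 was -0.24 and still called.

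*SMG5*, the adaptor that bridges phosphorylated UPF1 to the decay enzymes, was at 355, 372 and 356 CPM in ES8 sgCTL cells and at 494, 429 and 437 CPM with sgDNAJC17. All 3 knockdown libraries were above all 3 controls. In the ES8 ΔRRM libraries it was back at 357, 380 and 373 CPM, which overlaps the control range. *SMG5* was thus 0.27 lower on the log2 scale in ΔRRM than in sgDNAJC17 cells, with no overlap and an adjusted p of 0.0532 in edgeR, just over the threshold. DESeq2 called it. The rise with sgDNAJC17 was 0.29 after correction for GC content and length.

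The other 6 factors did not pass the test in ES8. *UPF1* was at 241, 246 and 238 CPM in sgCTL cells and at 282, 241 and 243 CPM with sgDNAJC17, where replicate A alone was high. *UPF2* and *UPF3B* were low in that same replicate A, *UPF2* with 26.2 CPM against 33.0 and 35.6 in the other knockdown libraries and 35.2 to 36.5 CPM in the controls. *UPF3B* had 14.8 CPM in it, against 21.3 and 24.01 in the other knockdown libraries and 20.03 to 20.96 CPM in the controls. *UPF3A*, *SMG6* and *SMG9* differed by 0.03, -0.10 and -0.13 on the log2 scale, each with overlapping groups. Replicate A of the ES8 knockdown therefore stood apart in *UPF1*, *UPF2* and *UPF3B*. It was also the highest for *SMG5*, with 494 CPM against 429 and 437. How far all other genes deviated in it was not examined. Without it 4 factors were called, *SMG6* with -0.16 and *SMG9* with -0.17 joining *SMG1* and *SMG5*. The share of all genes called in that fit is not given here, so this count is no result about the decay factors. With the correction for GC content and length 4 were called as well, *UPF1* up by 0.12 and *SMG9* down by 0.10 beside *SMG1* and *SMG5*, where 42.4% of all genes were called.

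**Figure D2:**
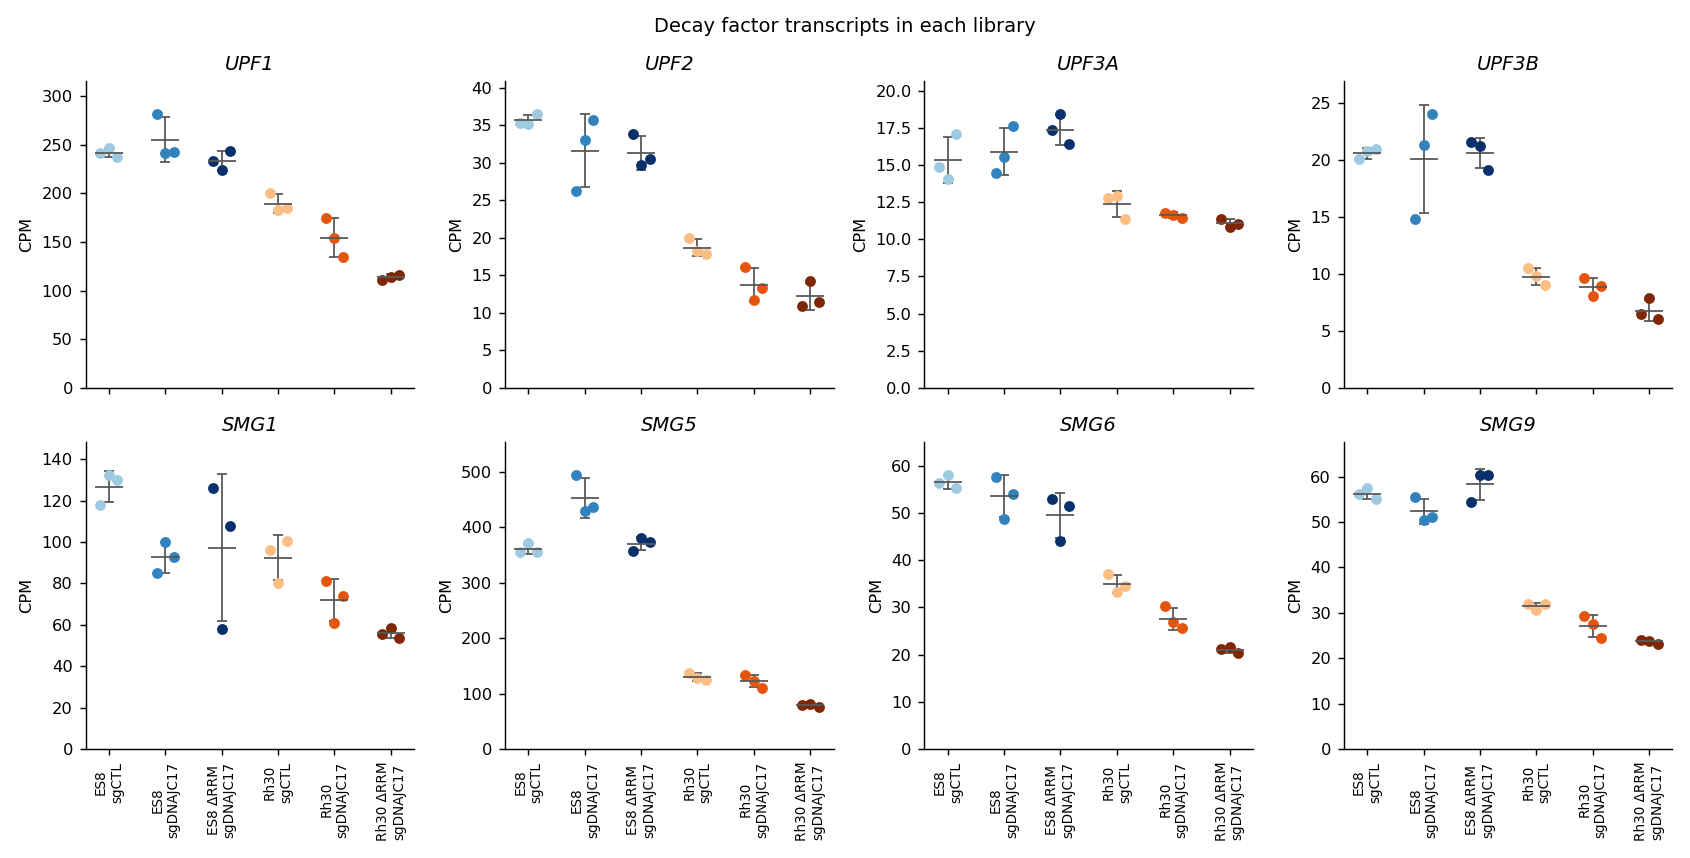
CPM (y axis, from 0) of each decay factor in every library, by group (x axis), with points for the replicates A, B and C from left to right and the group mean ± SD in grey. *SMG1* and *SMG5* moved apart in ES8 with sgDNAJC17, and Rh30 ΔRRM cells had the lowest group mean of all 8 factors, with *SMG5* as low as 75.6 CPM in a library.

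With sgDNAJC17 in Rh30, 4 of the 8 factors fell and none rose. *UPF2* fell by 0.43 on the log2 scale (SE 0.102, adjusted p = 0.00608, edgeR, n = 3 per group) and *SMG6* by 0.33 (SE 0.0756, adjusted p = 0.00485, edgeR, n = 3 per group). *SMG1* fell by 0.34 and *UPF1* by 0.28, with adjusted p-values of 0.0164 and 0.0161 in edgeR. Over all 15391 genes tested 32.3% were called, 16.1% up and 16.2% down. The median over the 8 decay factors was -0.24, against 0.00 over all genes.

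*UPF2*, the adaptor between UPF1 and the UPF3 proteins, was at 19.9, 18.3 and 17.8 CPM in Rh30 sgCTL cells and at 16.1, 11.7 and 13.2 CPM with sgDNAJC17, without overlap. Its call held when any 1 library was left out, and it fell by 0.49 with the correction for GC content and length. *SMG6*, the endonuclease of the pathway, was at 37.1, 33.3 and 34.5 CPM in controls and at 30.2, 26.8 and 25.6 CPM after knockdown, again without overlap. Of its exonic bases 25.37% also belonged to genes on the opposite strand, mostly *HIC1*, which had 6 to 75 counts per library. The strand setting of the counting is not given in the sources used here, so reads of *SMG6* in the shared bases cannot be told apart from those of its neighbours.

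*UPF1* was at 200, 183 and 185 CPM in Rh30 controls and at 175, 154 and 134 CPM with sgDNAJC17, every knockdown library being below every control. *SMG1* was at 96.4, 80.1 and 101 CPM in controls and at 81.3, 60.9 and 74.0 CPM after knockdown, where knockdown replicate A lay above control replicate B. Both calls were lost on leaving out some libraries, down to adjusted p = 0.0684 for *UPF1* and 0.105 for *SMG1* (edgeR). Without control replicate A, or without knockdown replicate B, only *UPF2* and *SMG6* remained called. *UPF1* was also lost without knockdown replicate C, and *SMG1* without control replicate C. With the replicate letter as a block both were called, *UPF1* with adjusted p = 3.7e-06 and *SMG1* with adjusted p = 4.4e-07 (edgeR). The labels do not say whether libraries of the same letter were paired. *SMG9*, the partner of SMG1 in its complex, was at 32.1, 30.7 and 31.8 CPM in controls and at 29.3, 27.6 and 24.4 CPM after knockdown. It was 0.20 lower with adjusted p = 0.0510, and passed with the replicate letter as a block (adjusted p = 0.00469, edgeR).

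Neither UPF3 gene nor *SMG5* was called in Rh30 with sgDNAJC17. *UPF3A*, the paralogue usually taken to be the weaker in decay, differed by -0.07, the X-linked *UPF3B* by -0.12 and *SMG5* by -0.07 on the log2 scale, each with overlapping groups. *SMG5* was at 137, 128 and 125 CPM in controls and at 133, 123 and 110 CPM after knockdown. For *SMG5* the change in Rh30 was lower than that in ES8 by 0.35 on the log2 scale (SE 0.110, adjusted p = 0.0447, edgeR interaction of line and sgRNA over 12 libraries). It was the only decay factor of 8 called in that interaction, as were 9.78% of the 18899 genes tested, and on leaving out 8 of the 12 libraries in turn, all 6 controls and Rh30 knockdown replicates B and C, it was not called. With the correction for GC content and length *SMG5* differed by -0.16 (adjusted p = 0.0877, edgeR) and was not called, and *UPF2* was called at -0.32, with 17.2% of all genes called.

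Across genes, the Rh30 changes went with gene composition. The log2 change with sgDNAJC17 in Rh30 had a Spearman correlation of -0.349 with GC content and -0.226 with exonic length over the genes tested, while in ES8 these were 0.105 and -0.211. Genes are not independent replicates, and these values describe the libraries. Among the decay factors *UPF1* has a GC content of 60.4% and *SMG5*, *SMG6* and *SMG9* of 55.2 to 57.6%, whereas *UPF2*, *UPF3A*, *UPF3B* and *SMG1* lie between 40.3 and 43.1%, and *SMG1* is the longest with 25988 exonic bases. After the correction for GC content and length *UPF2* alone was called in Rh30 with sgDNAJC17, where 31.3% of all genes were called. *UPF1* then differed by -0.01, *SMG6* by -0.10 and *SMG1* by -0.17. With the block as well, *SMG1*, *UPF2* and *UPF3B* were called, at -0.17, -0.50 and -0.27. Whether the trend is technical was not tested.

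In ES8 ΔRRM cells none of the 8 factors was called against sgCTL. Few genes were called in that comparison at all, 0.174% of 17199. *UPF2* differed by -0.19 and *SMG6* by -0.20 on the log2 scale, with adjusted p-values of 0.310 and 0.320 (edgeR). In both the groups did not overlap, and the share of all genes without overlap is not given here. DESeq2 called none. *UPF2* was at 33.9, 29.6 and 30.4 CPM in these ΔRRM libraries and *SMG6* at 52.9, 43.98 and 51.5 CPM, below the control minimum of 35.2 and 55.2 CPM. Against sgDNAJC17 cells of ES8 none was called either, where 14.7% of 17099 genes were called. *SMG5* was the nearest to it, as given above. With the correction for GC content and length *SMG5* and *SMG9* were called there, at -0.26 and 0.19, with 31.8% of all genes called.

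Rh30 ΔRRM cells had the lowest group mean of every decay factor among the 6 groups. Against sgCTL, 7 of the 8 fell, by 0.70 on the log2 scale for *UPF1* and *SMG6*, 0.69 for *SMG1* and *SMG5*, 0.57 for *UPF2*, 0.48 for *UPF3B* and 0.37 for *SMG9*. Their adjusted p-values ran from 2.07e-15 for *UPF1* to 8.12e-05 for *UPF3B* (edgeR), and all 7 calls held when any 1 library was left out. The largest fold was 1.62. In this comparison 68.8% of the 15442 genes tested were called, 33.8% up and 35% down. The median over the 8 factors was -0.63, against -0.01 over all genes. Scaled by library size alone, the median of all genes moved to -0.25 and all 8 factors were called lower.

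The 3 libraries of Rh30 ΔRRM cells lay close together for most factors. *UPF1* was at 110, 114 and 116 CPM, against 183 to 200 CPM in sgCTL cells. *SMG5* was at 79.9, 80.6 and 75.6 CPM, against 125 to 137 CPM. Both fell well outside the control range in every library. *SMG1* was at 55.8, 58.4 and 53.7 CPM and *SMG6* at 21.1, 21.6 and 20.3 CPM, in each case below all control and all sgDNAJC17 libraries of Rh30. *SMG9* was at 24.1, 23.9 and 23.1 CPM, under the lowest sgDNAJC17 library at 24.4 CPM. The spread was wider for *UPF2*, with 10.9, 14.3 and 11.4 CPM, and *UPF3B*, with 6.49, 7.84 and 6.01 CPM against 8.98 to 10.5 CPM in controls. *UPF3A* was the exception with 11.4, 10.8 and 11.03 CPM, against 11.3 to 12.9 CPM in controls and a log2 change of -0.12 ± 0.0922 (SE). Per exonic length *UPF3A* thus stood at 0.676 ± 0.0235 of *UPF3B* in Rh30 sgCTL cells and at 0.884 ± 0.129 in ΔRRM cells (SD, n = 3).

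Part of this pattern followed gene composition too, the Spearman correlations across genes being -0.382 with GC content and -0.311 with length. After the correction 6 of 8 factors were called lower, with 62.8% of all genes called. These were *UPF3B* with -0.87, *UPF2* with -0.71, *SMG5* with -0.35, *SMG1* with -0.30, *UPF3A* with -0.22 and *SMG6* with -0.15. *UPF1* then differed by -0.09, with adjusted p = 0.118 (edgeR), and *SMG9* turned to 0.05. The size and order of the changes in Rh30 ΔRRM cells therefore rest on this setting, *UPF1* having the largest change without the correction and no call with it. *UPF2*, *UPF3B*, *SMG1*, *SMG5* and *SMG6* were called lower under both.

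**Figure D3:**
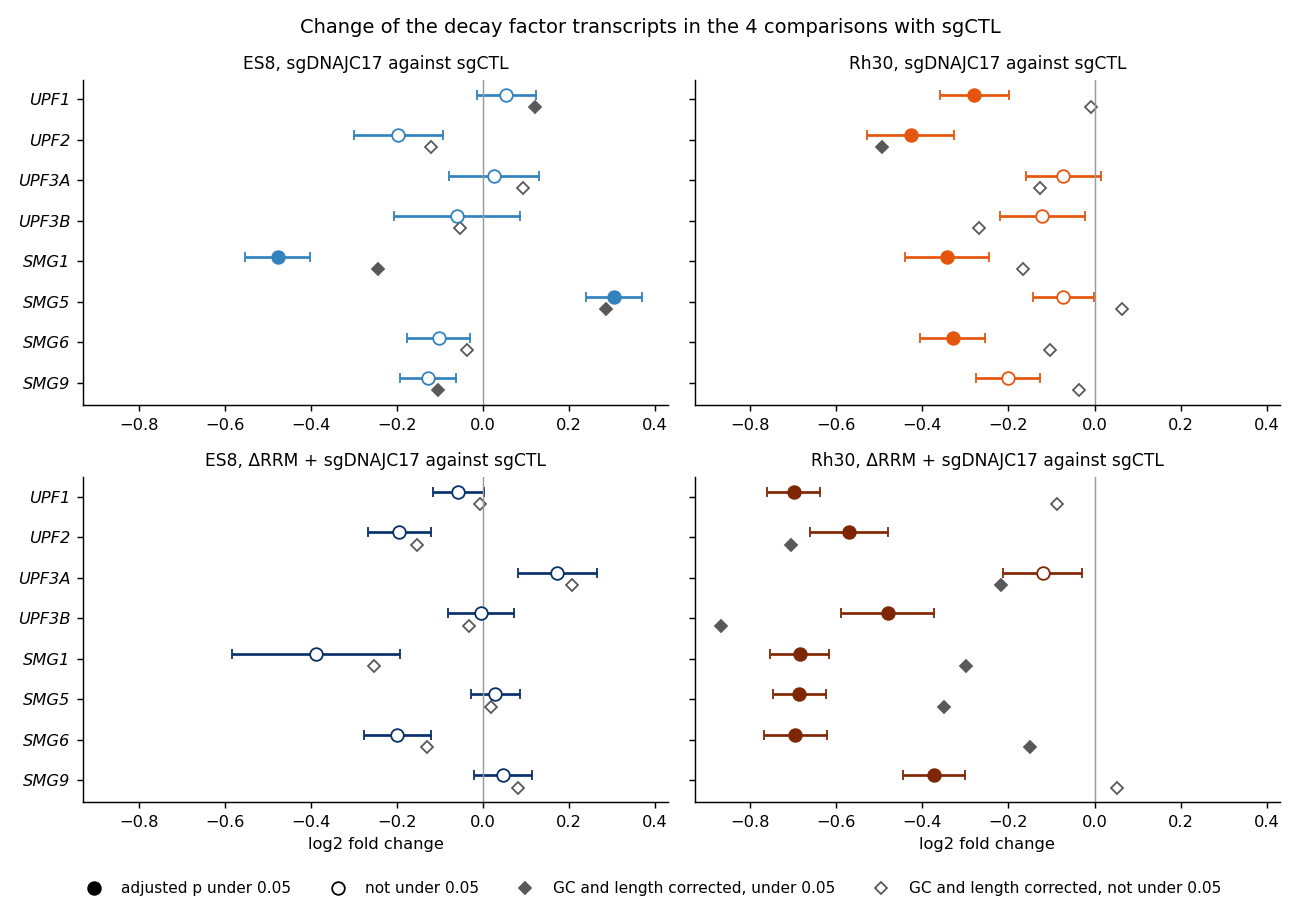
Log2 fold change (x axis) of the 8 decay factors against sgCTL for sgDNAJC17 and ΔRRM cells of each line, with circles and SE bars for the edgeR fit and diamonds for the fit corrected for GC content and gene length. Filled symbols have an adjusted p under 0.05. In Rh30 ΔRRM cells *UPF1* lies at -0.70 and moves to -0.09 with the correction, while *UPF2* lies at -0.57 and moves to -0.71.

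Rh30 ΔRRM cells also lay below Rh30 sgDNAJC17 cells. Of the 8 factors 5 fell, *SMG5* by 0.63, *UPF1* by 0.43, *SMG6* by 0.38, *UPF3B* by 0.37 and *SMG1* by 0.36 on the log2 scale, where 60% of the 15309 genes tested were called, 29.4% up and 30.5% down. *UPF2*, *UPF3A* and *SMG9* differed by -0.16, -0.06 and -0.18 and were not called. With the correction *SMG5* at -0.43 and *UPF3B* at -0.61 remained, among 59.6% of all genes. The comparisons with sgCTL share their control libraries, and those of ΔRRM with sgDNAJC17 cells share libraries with them as well, so their counts are not separate evidence.

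The change in ΔRRM cells against sgCTL differed between the lines for 6 of the 8 factors, each lower in Rh30. This interaction was chosen after seeing the data. The log2 difference was -0.71 for *SMG5* (SE 0.0822, adjusted p = 3.9e-07, edgeR over 12 libraries), -0.64 for *UPF1*, -0.50 for *SMG6*, -0.48 for *UPF3B*, -0.42 for *SMG9* and -0.38 for *UPF2*. Over the 18854 genes tested 41.4% were called, 19.9% up and 21.5% down. *SMG1*, with 1 low ΔRRM library in ES8, differed by -0.30 ± 0.224 (SE) and was called without that library. The call of *UPF2* was lost without Rh30 control replicate A and without Rh30 ΔRRM replicate A or C. *SMG5*, *UPF2*, *UPF3A* and *UPF3B* were called with the correction for GC content and length, with 35.3% of all genes called.

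Known substrates of the pathway were also examined. A list of 10 spliced host transcripts of small nucleolar RNAs and related transcripts, known from other work to be decayed, rose with sgDNAJC17 in both lines. All 10 were called up in ES8, with a median of 0.75, and all 10 in Rh30, with a median of 0.57 on the log2 scale, beside the 13.6 and 16.1% of all genes that rose. With the correction for GC content and length 9 were called up in each line, where 42.4% of all genes in ES8 and 31.3% in Rh30 were called in either direction. *SNHG1* averaged 57.8 ± 2.0 CPM in ES8 controls and 114 ± 4.6 CPM after knockdown (SD, n = 3). In Rh30 its means were 46.6 ± 2.0 and 120 ± 9.9 CPM. *SNHG15* rose by 0.78 and 1.09, *ZFAS1* by 0.72 and 0.92 and *EPB41L4A-AS1* by 1.14 and 0.52 (log2, ES8 first). The last 2 are antisense genes and, with the strand setting not given, may include reads of their partners. These lists were chosen with earlier results of these data known.

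In ΔRRM cells none of the 10 was called against sgCTL in ES8, beside 0.174% of all genes, and their median was 0.21. In these ES8 cells 5 were called lower than with sgDNAJC17, beside 7.36% of all genes. *SNHG1* was at 69.1 ± 5.5 CPM there (SD, n = 3). In Rh30 ΔRRM cells 8 of the 10 were called higher than in sgCTL cells, with a median of 0.77, beside 33.8% of all genes, *ZFAS1* by 1.63 and *SNHG1* by 0.93 on the log2 scale. Against Rh30 sgDNAJC17 cells 4 of the 10 were higher and 4 lower, beside 29.4 and 30.5% of all genes. *SNHG1* and *SNHG15* were among the lower ones, with 86.4 ± 5.8 and 56.4 ± 2.1 CPM, and *ZFAS1* was among the higher ones with 69.4 ± 1.1 CPM. The change in ΔRRM cells was larger in Rh30 than in ES8 for 8 of the 10 by the interaction test, beside 19.9% of all genes. With the correction 7 were higher and 1 lower in Rh30 ΔRRM than in sgCTL cells, where 62.8% of all genes were called in either direction. The lower one was the pseudogene *RP9P* at -0.30, which was picked out after its values were seen.

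**Figure D4:**
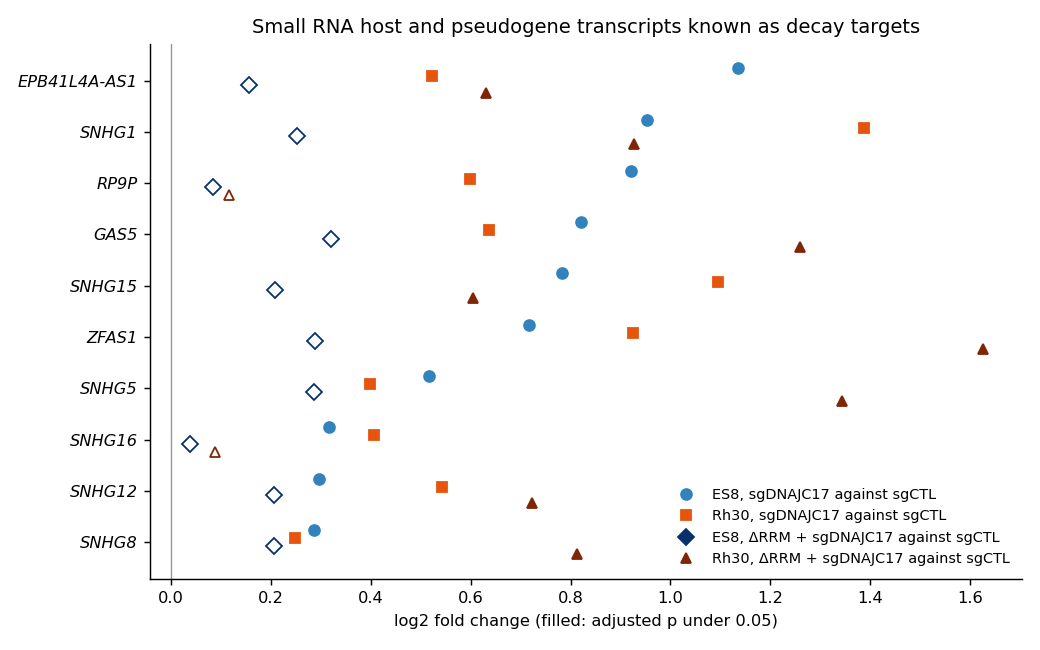
Log2 fold change against sgCTL (x axis) of 10 small RNA host and pseudogene transcripts known as decay targets, with a symbol and colour for each of the 4 comparisons and filled symbols for an adjusted p under 0.05. All symbols lie right of 0, and *ZFAS1* in Rh30 ΔRRM cells reaches 1.63. Those of ES8 ΔRRM cells are unfilled, where 0.174% of all genes were called.

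Decay of stress mRNAs is another known activity of the pathway. Of 10 such mRNAs, 5 rose and 1 fell in ES8 with sgDNAJC17, and 7 rose and 1 fell in Rh30. Over all genes 13.6% rose and 13.8% fell in ES8, and 16.1% rose and 16.2% fell in Rh30. *ATF4*, the transcription factor of the integrated stress response, rose by 0.72 in ES8 and by 0.54 in Rh30 (log2), and *DDIT3*, its proapoptotic target, by 0.52 and 0.49. *GADD45A* rose by 0.39 and 0.45. *GADD45B* rose in Rh30 by 0.81, and was at 0.32 in ES8 with adjusted p = 0.0638 (edgeR). In ΔRRM cells none of the 10 was called in ES8, where 0.174% of all genes were called. In Rh30 ΔRRM cells 7 rose and 3 fell, beside 33.8 and 35% of all genes, and *GADD45B* fell by 0.24. The same mRNAs are also induced by transcription under stress, and the 2 routes cannot be told apart in RNA levels.

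Another list held 9 splicing factor and ribosomal protein genes that make a decayed isoform with a poison exon or retained sequence. Gene counts sum over isoforms and cannot show that isoform. With sgDNAJC17, 4 of the 9 rose in ES8 and 7 in Rh30, beside 13.6 and 16.1% of all genes, and none fell. With the correction 6 rose in each line and 1 fell in ES8, where 42.4% of all genes in ES8 and 31.3% in Rh30 were called in either direction. *TRA2A*, a splicing activator, rose by 0.54 and 0.42, *SRSF3* by 0.38 and 0.45 and *SRSF7* by 0.20 and 0.31, and the ribosomal *RPS9* by 0.46 and 0.33. In Rh30 ΔRRM cells all 9 were higher than in sgCTL cells, *SRSF7* by 0.98 and *RPS9* by 0.91, and 8 of the 9 were higher than with sgDNAJC17, where 33.8 and 29.4% of all genes were higher. None was called against sgCTL in ES8 ΔRRM cells, where 0.174% of all genes were called.

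The exon junction complex, which marks where an intron was removed and recruits UPF3 proteins, also rose in part. Of 9 core and associated genes, 5 were called up in each line with sgDNAJC17 and none down, where 13.6% of all genes rose in ES8 and 16.1% in Rh30. *SAP18*, of the associated ASAP complex, rose by 0.45 in both lines, and *RNPS1*, its RNA-binding partner, by 0.35 in ES8 and 0.24 in Rh30. *MAGOHB*, a copy of the core subunit MAGOH, rose by 0.45 and 0.38, and *MAGOH* itself rose by 0.28 in Rh30, which became 0.03 and no call with the correction, and was at 0.21 in ES8 with adjusted p = 0.0646 (edgeR). In Rh30 ΔRRM cells the list split, 4 genes being higher than in sgCTL cells and 4 lower, beside 33.8 and 35% of all genes. *SAP18* was up by 1.08 there, while *RNPS1* was down by 0.56.

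Other genes of the decay machinery showed no common direction. Of 13 genes, 1 rose and 3 fell in ES8 with sgDNAJC17, and 2 rose and 3 fell in Rh30, shares near the 27.4 and 32.3% of all genes called. With the correction 6 rose and 5 fell in ES8, where 42.4% of all genes were called. *GSPT2*, a translation release factor, rose by 0.52 and 0.43. The helicase gene *MOV10* fell by 0.42 and 0.34, and the 5′ to 3′ exonuclease gene *XRN1* by 0.50 and 0.35. *NBAS* fell by 0.38 in ES8, and was at -0.16 in Rh30 with adjusted p = 0.0913 (edgeR). In Rh30 ΔRRM cells 3 of the 13 were higher and 7 lower than in sgCTL cells, where 68.8% of all genes were called. None was called in ES8 ΔRRM cells against sgCTL, beside 0.174% of all genes.

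The decay factors did not move as a block among themselves. Over the 18 libraries, after each line's mean was removed, Pearson's r of log2 CPM between pairs of them ran from -0.04 for *UPF3A* and *SMG1* to 0.94 for *UPF1* and *SMG6*. *UPF3A* had the lowest values with most of the others. Among 9442 genes with at least 100 counts in every library, the gene most like each factor was *NUMA1* for *UPF1* (r = 0.990), *GTF2F1* for *SMG5* (0.988), *ZZEF1* for *SMG6* (0.981), *BIRC6* for *SMG1* (0.979), *THOP1* for *SMG9* (0.977), *CEP112* for *UPF3B* (0.943), *SLK* for *UPF2* (0.942) and *IFNGR2* for *UPF3A* (0.703). These are descriptions over libraries that share groups and library composition.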

How the data were processed

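RNA was collected from ES8 and Rh30 cells in 6 groups of 3, enriched for mRNA by poly-A selection and sequenced. The authors deposited 1 table of raw counts per library, with whole numbers of reads per gene and the exon positions of each gene. The submitters' processing notes name Trimmomatic 0.36, STAR 2.5.2b, featureCounts and Subread 1.5.2 on GRCh38; the study's methods name an older build, but 85.33% of 18942 protein-coding genes start within 1 kb of their GRCh38 position. The strand setting and the treatment of multi-mapped reads are not given in the sources used here. All 57500 rows named a gene, and library totals ran from 35342393 to 48245989 counts. Precision is limited by 3 libraries per group, and how far depth limits it as well was not tested.

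The main test was edgeR's quasi-likelihood test (edgeR 4.0.16, R 4.3.3) over the groups compared, after filterByExpr and TMM scaling. P-values were adjusted by Benjamini-Hochberg over all genes, and a gene was called at an adjusted p under 0.05 with no fold requirement. The SE is the log2 fold change divided by the root of the F statistic. CPM were scaled by TMM over the 18 libraries together. The fit was checked on simulated counts.

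All 8 members are named. From each list, up to 4 genes called with sgDNAJC17 in a line were named, those with the largest change averaged over the lines and a mean count of at least 100. The members and lists were chosen with earlier results of these data known.

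Alternatives were DESeq2 1.42.0, its size factors in edgeR, library size alone, no filter on counts, a minimum of 10 counts per library, an adjusted p under 0.01, a fold change of at least 2, 1 fit over all 18 libraries, a block for the replicate letter, and each library left out in turn. The interaction of line with the ΔRRM groups and a correction for GC content and exonic length (lowess offsets, span 0.3, GC content of the longest transcript for 98.66% of genes), alone and with the block, were chosen after seeing the data. Libraries of the same letter deviated together for all of A, B and C in the Rh30 knockdown only. Their correlations were 0.816, 0.533 and 0.567 over 6777 genes with a mean of at least 1000 counts. Over all genes tested these were 0.0918, 0.0156 and 0.0300. In the ES8 knockdown the letters were mixed, with -0.218, -0.636 and 0.576 over 6957 genes with a mean of at least 1000 counts. Sequences are not printed.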

Additional observations from a re-analysis of the deposited data

Results flagged for a closer look

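The change of *SMG5* with sgDNAJC17 differed between the lines, with an interaction of -0.35 on the log2 scale (Rh30 minus ES8), where it rose in ES8 and was not called in Rh30. Corrected for GC content and length it was -0.16 (adjusted p = 0.0877, edgeR) and not called. The change in ΔRRM cells against sgCTL differed between the lines for 6 factors, with interactions of -0.64 for *UPF1*, -0.38 for *UPF2*, -0.48 for *UPF3B*, -0.71 for *SMG5*, -0.50 for *SMG6* and -0.42 for *SMG9*, each lower in Rh30 and each past an adjusted p of 0.05 in edgeR. Corrected for GC content and length, the values for *UPF1*, *SMG6* and *SMG9* were -0.09, -0.04 and -0.04 and no longer called. The groups of 3 are too small for a search for outlying libraries.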

How the results depend on the processing

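No member reached a 2-fold change with sgDNAJC17, in ΔRRM cells or in either interaction (0 in each), and 2 did so between the sgCTL cells of the lines. With the correction for GC content and length, chosen after seeing the data, the number called was 4 against 2 in the ES8 knockdown, 1 against 4 in the Rh30 knockdown, 2 against 0 for ΔRRM against knockdown in ES8 and 2 against 5 in Rh30. In the same order, 42.4 against 27.4%, 31.3 against 32.3%, 31.8 against 14.7% and 59.6 against 60% of all genes were called. For the other settings in this paragraph the share of all genes is not given here, so their counts are no result about the decay factors. *SMG9* in Rh30 ΔRRM cells against sgCTL turned to 0.0530, with the replicate block 0.0534, and *UPF1* between the lines to 0.0895. With the block and the correction together 1 was called for ΔRRM against knockdown in ES8, 2 in Rh30 and 2 in the interaction with sgRNA. The letter alone as a block changed 1 call, that of *SMG9* in the Rh30 knockdown, where 5 factors were called in place of 4. Without the filter 1 was called for ES8 ΔRRM against sgCTL and 2 in the interaction with sgRNA, which also had 2 with all libraries in 1 fit. For ES8 ΔRRM against knockdown DESeq2, library size alone, no filter, at least 10 counts and all libraries in 1 fit each called 1. At an adjusted p under 0.01, 2 were called in the Rh30 knockdown and 0 in the interaction with sgRNA. Leaving out each library, the number called ran from 2 to 4 in the ES8 knockdown, 2 to 5 in the Rh30 knockdown, 0 to 1 for ES8 ΔRRM against knockdown, 0 to 2 in the interaction with sgRNA and 5 to 7 in that with ΔRRM. With 3 libraries per group, changes near 0.20 on the log2 scale sat at the threshold, as for *SMG9* in the Rh30 knockdown. Library size alone moved the median log2 change over all genes from -0.01 to -0.17 for Rh30 ΔRRM against knockdown, from -0.02 to -0.23 in the interaction with ΔRRM and from -0.07 to -0.28 between the lines, and reversed no called member. With all libraries in 1 fit *SMG1* was not called in the Rh30 knockdown or for ΔRRM against knockdown in Rh30. Over the single members the correction lost 11 calls without a change of sign, beside that of *SMG9* in Rh30 ΔRRM cells, and gained 7, and leaving out each library lost 17 and gained 10. The cause of these shifts was not tested.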
